A study of Mus musculus with 25 samples.

Results

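Hes1, Hes5, Hey1, Hey2, Heyl and Nrarp, 6 genes widely used as readouts of Notch signalling, were followed through 9 lists of genomic regions from mK4 cells, a mouse line derived from embryonic kidney mesenchyme. For each gene a window of build mm9 was set around the locus, and all deposited regions that overlapped it were taken, whatever their score. The windows were chr16:30010000-30120000 for Hes1, chr4:154285000-154390000 for Hes5, chr3:8610000-8720000 for Hey1, chr10:30500000-30615000 for Hey2, chr4:122860000-122980000 for Heyl and chr2:24985000-25090000 for Nrarp. They held 221 of the 222370 deposited regions, of which 99 were at Hes1, 60 at Nrarp, 22 at Hey2, 18 at Heyl, 13 at Hey1 and 9 at Hes5. No annotation of mm9 was used here, so positions are given as coordinates and as distances from the window centre, which is not the gene start. By gene order in RefSeq GRCm38.p6, the neighbours on the lower and higher side are Opa1 and Cpn2 for Hes1, Tnfrsf14 and Pank4 for Hes5, and Ncoa7 and Hddc2 for Hey2. They are Nt5c1a and Pabpc4 for Heyl, Noxa1 and Tor4a for Nrarp, and Stmn2 and, past one uncharacterised locus, Mrps28 for Hey1. A region in a window may therefore lie at one of these neighbours.

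Notch is a membrane receptor whose intracellular domain is cut free when a ligand binds. The domain enters the nucleus, joins the DNA-binding protein RBP (also called CSL) and the co-activator MAML, and MAML recruits the acetyltransferase p300. Hes1 and Hes5, and Hey1, Hey2 and Heyl, encode basic helix-loop-helix repressors that carry the signal on, and Nrarp encodes a small ankyrin-repeat protein that damps Notch signalling. In the developing kidney Notch signalling is known for its part in patterning the early nephron.

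The study mapped where pairs of proteins meet on the genome with split DamID (SpDamID), in which inactive parts of the bacterial methylase Dam are fused to each of 2 proteins and mark GATC sites where the parts come together. The 25 libraries, all labelled mK4, comprised 3 of DAM, 3 of N1-D/RBP-AM-Ert2, 3 of N1-D/MAML-AM-Ert2, 3 of N1-D/p300-AM-Ert2, 2 of N1-D/N1-AM-Ert2 (N1 is Notch1), 1 of Mef2c-D/MAML-AM-Ert2 and 1 of Mef2c-D/p300-AM-Ert2. Open chromatin was recovered by FAIRE, the phenol extraction of sonicated cross-linked nuclei, in 3 Control FAIRE and 3 N1wt FAIRE libraries with 1 N1wt_FAIRE input, and N1 was precipitated through a myc tag in 1 N1 ChIP library with 1 ChIP input. Both FAIRE lists, total and Notch-dependent, were read from their names as lists of the N1wt libraries. No list of Control FAIRE regions was used, so open chromatin below means that of N1wt. The strain label reads CD1 throughout except CD2 for 1 N1/N1 library and CD3 for the Mef2c/MAML library, and the labels name no treatment, dose or clone. Below, N1/RBP, N1/MAML, N1/p300 and N1/N1 are called the N1 lists, and Mef2c/MAML and Mef2c/p300, which hold no Notch protein, the Mef2c lists. Mef2c is a MADS-box transcription factor. Every list gives a single value per region, whether it rests on 1 library or on several, so values carry no replicate error, no test between complexes was possible and the depth per library is unknown. All 6 SpDamID lists were scored over Dam, and the sources used here do not state which of the 3 DAM libraries each list used. The lists may thus share a control, and the Mef2c lists rest on 1 library each. Joint presence in several lists is therefore a description and not independent support.

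RefSeq promoters (GRCm38.p6, a later build than that of the lists, 250 bases before to 50 after each gene's start) were matched for 3 of the 6 genes, Hes5, Hey2 and Nrarp. They are shown because RBP reads the letters GTGGGAA and because SpDamID can mark DNA only at GATC. Capitals mark GTGGGAA, its reverse complement TTCCCAC, and GATC, all read 5′ to 3′ on the gene's own strand.
Hes5, chr4:154960673-154960972, plus strand: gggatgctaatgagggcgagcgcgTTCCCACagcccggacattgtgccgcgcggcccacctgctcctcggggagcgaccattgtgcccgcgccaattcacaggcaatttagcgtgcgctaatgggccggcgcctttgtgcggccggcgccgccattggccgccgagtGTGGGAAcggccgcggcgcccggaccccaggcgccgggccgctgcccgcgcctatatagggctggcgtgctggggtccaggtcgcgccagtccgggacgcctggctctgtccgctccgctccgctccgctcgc
Hey2, chr10:30842734-30843033, minus strand: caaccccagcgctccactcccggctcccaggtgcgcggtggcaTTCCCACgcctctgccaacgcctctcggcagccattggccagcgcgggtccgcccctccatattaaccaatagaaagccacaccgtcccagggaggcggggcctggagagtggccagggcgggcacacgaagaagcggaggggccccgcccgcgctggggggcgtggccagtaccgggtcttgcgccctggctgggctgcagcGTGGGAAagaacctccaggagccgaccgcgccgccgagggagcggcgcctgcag
Nrarp, chr2:25180508-25180807, plus strand: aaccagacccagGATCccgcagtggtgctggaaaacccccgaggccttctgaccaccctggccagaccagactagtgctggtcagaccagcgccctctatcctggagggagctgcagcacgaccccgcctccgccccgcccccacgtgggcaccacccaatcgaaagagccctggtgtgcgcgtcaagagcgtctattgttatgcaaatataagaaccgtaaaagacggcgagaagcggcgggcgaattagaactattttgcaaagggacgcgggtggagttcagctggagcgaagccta
Counted from the 5′ end, the Hes5 promoter holds TTCCCAC at bases 25 to 31 and GTGGGAA at bases 168 to 174, with 136 bases between them. The Hey2 promoter holds TTCCCAC at bases 44 to 50 and GTGGGAA at bases 247 to 253, with 196 bases between them. In both promoters the sites therefore face away from each other. Of 32817 promoters of the same length, 6.39% hold GTGGGAA on either strand and 0.256% hold it at least 2 times. Paired Notch complexes are known to bind sites in a head-to-head arrangement. It was searched as TGGGAA (contained in GTGGGAA) followed by TTCCCA with 15 to 19 bases between. None of the 3 promoters holds an exact match, which 0.0274% of all promoters hold. Pairs with a mismatch were not searched. The Nrarp promoter holds neither TGGGAA nor its complement, and 25.6% of all promoters hold one of them. A GATC occurs once at Nrarp, from base 13, and not in the Hes5 or Hey2 stretch, against 48.0% of promoters with at least 1. A match is a description of letters and not a bound site.

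The 6 windows differed widely in how much SpDamID signal they held. A fragment is the stretch of DNA that the lists use as their common unit, and 2 lists mark the same fragment when its ends coincide. The windows held 73 of the 96409 distinct fragments of the series: 26 at Hes1, 22 at Nrarp, 11 at Heyl, 9 at Hey2, 3 at Hey1 and 2 at Hes5. Neighbouring fragments made up much of the difference: with fragments within 500 bp merged, the counts were 12 at Hes1, 13 at Nrarp, 10 at Heyl, 6 at Hey2, 3 at Hey1 and 2 at Hes5. Hes1 was the only window with regions of all 9 lists, Hey2 and Nrarp had regions of 8, Hey1 and Heyl of 6 and Hes5 of 4. The fragments covered 16.4% of the bases of the Hes1 window and 13.2% of those at Nrarp, but 6.42% at Heyl, 5.51% at Hey2, 2.56% at Hey1 and 1.25% at Hes5.

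**Figure D1:**
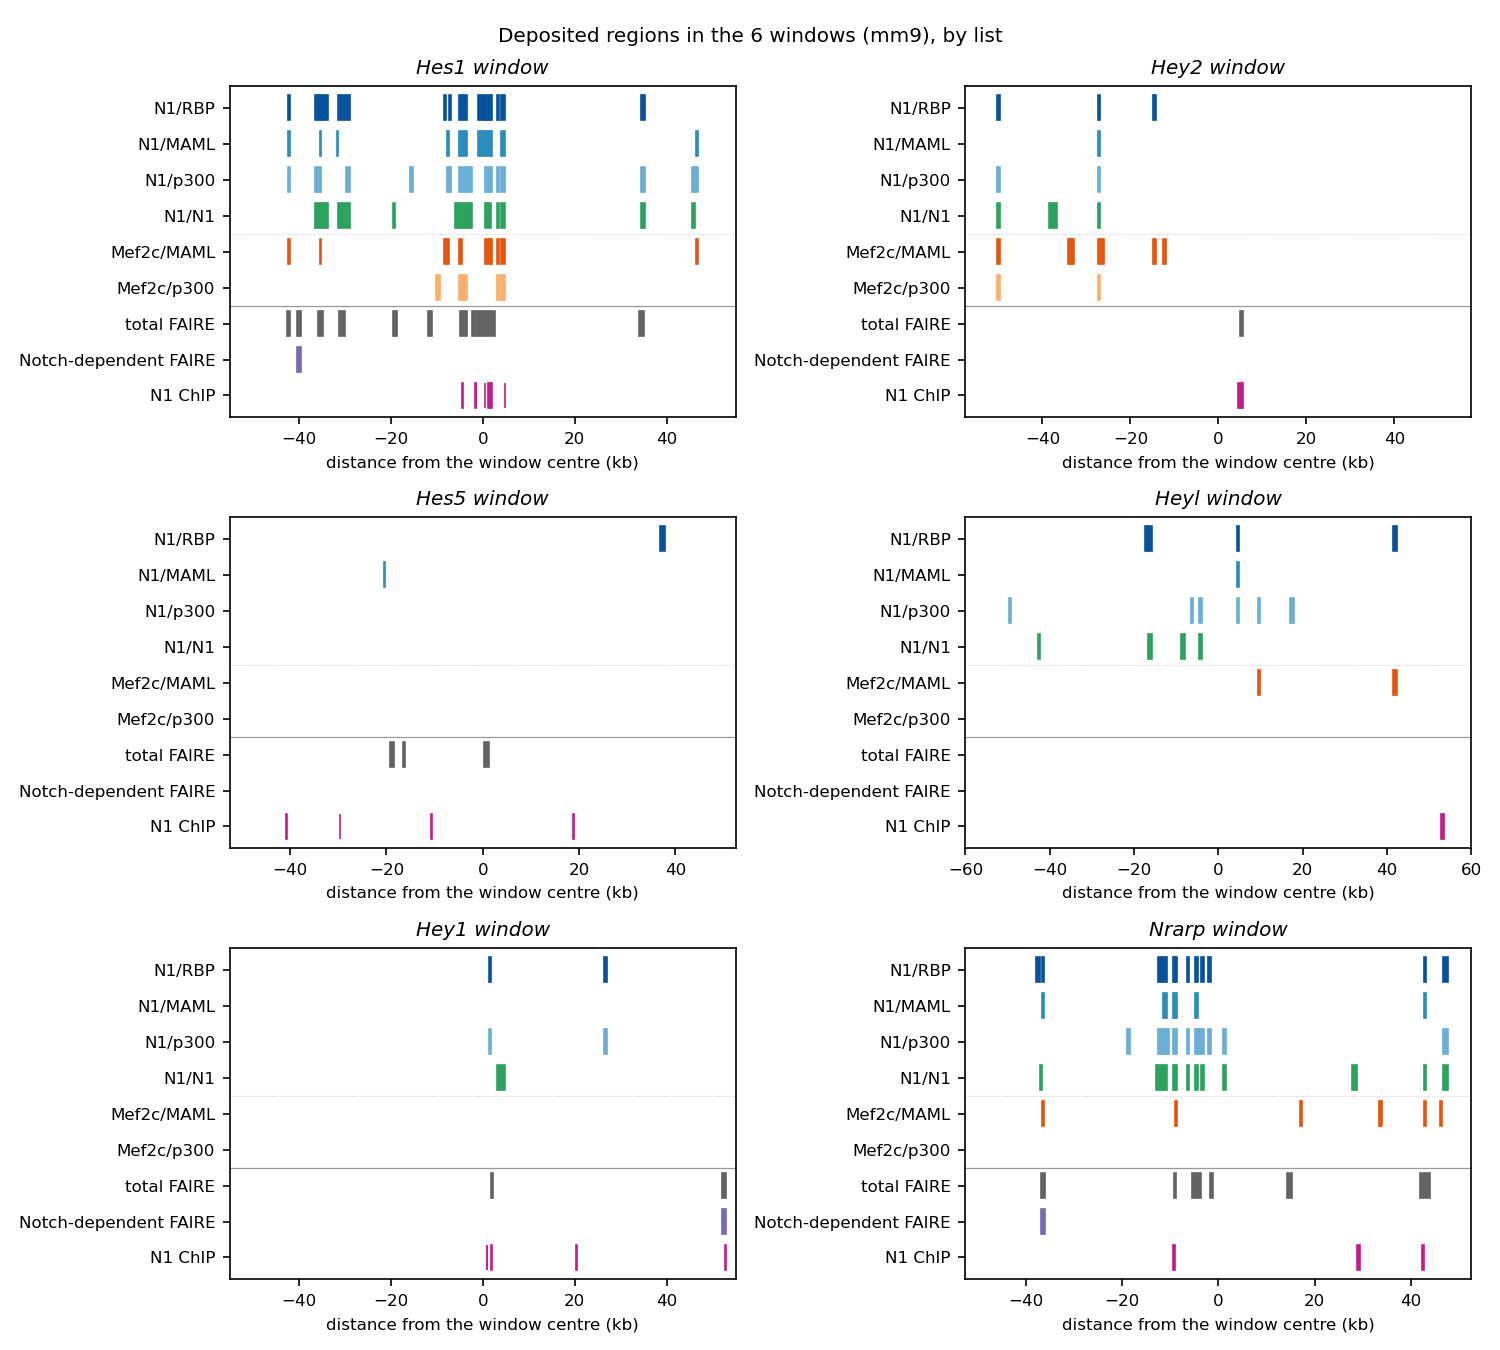
Positions of all deposited regions in the 6 windows, 1 panel per gene, with distance from the window centre in kb on the horizontal axis and 1 line per list; each bar is 1 region, drawn at a minimum width so that short ones can be seen. Hes1 and Nrarp carry stacked marks of several lists near the centre, while the Hes5 and Hey1 windows hold 2 and 3 SpDamID fragments.

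Presence of a list in a window was read against adjacent 110 kb windows of the genome. Of 23967 such windows, 38.2% held at least 1 N1/RBP region, 33.5% an N1/MAML, 36.0% an N1/p300 and 41.8% an N1/N1 region. The shares were 51.1% (Mef2c/MAML), 42.6% (Mef2c/p300), 34.3% (total FAIRE), 7.76% (Notch-dependent FAIRE) and 28.2% (ChIP). The N1/RBP list was present at 6 of the 6 genes, N1/MAML, N1/p300 and N1/N1 at 5 each, Mef2c/MAML at 4 and Mef2c/p300 at 2. Total FAIRE was present at 5, Notch-dependent FAIRE at 3 and ChIP at 6. Since many genome windows hold no region of any kind, these background shares are low. Among the 8212 windows with a total FAIRE region, 81.6% held N1/RBP and 84.4% N1/N1, so the presence of either alone says little for genes in open chromatin. The shares there were 66.8% for N1/MAML, 74.5% for N1/p300, 92.1% for Mef2c/MAML and 79.8% for Mef2c/p300. They were lower for ChIP (57.6%) and Notch-dependent FAIRE (22.2%).

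The number of regions separated the genes more clearly than presence. The Hes1 window held 17 N1/RBP, 12 N1/MAML, 18 N1/p300 and 16 N1/N1 regions. Windows of the same length with at least as many made up 0.146%, 0.104%, 0.0459% and 0.250% of the genome, and 0.414%, 0.268%, 0.110% and 0.670% of the windows with a total FAIRE region. The 11 total FAIRE regions at Hes1 were reached by 0.0876% of all windows. At Nrarp the counts were 12, 6, 13 and 13 in the same order of lists, reached by 0.661%, 1.41%, 0.203% and 0.550% of all windows and by 1.89%, 3.89%, 0.559% and 1.53% of those with total FAIRE. Hes1 and Nrarp thus lay at the dense end of the genome for every N1 list. The Mef2c lists stood less far out, with 11 Mef2c/MAML regions at Hes1 (reached by 2.85% of all windows and 7.81% of those with total FAIRE) and 5 Mef2c/p300 regions (7.34% and 18.7%). The 6 Mef2c/MAML regions at Nrarp were reached by 12.0% and 31.9%.

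The other genes were not set apart by their fragment counts. Windows with at least as many fragments made up 50.9% of the genome for Hes5, 44.6% for Hey1, 18.5% for Hey2 and 13.8% for Heyl. Among windows with total FAIRE these shares were 93.9%, 89.3%, 46.8% and 35.3%. Among counts above 1, the furthest out were 6 N1/p300 regions at Heyl (3.97% and 10.4%), 5 ChIP regions at Hey1 (5.52% and 13.9%), 4 ChIP regions at Hes5 (7.16% and 17.8%) and 8 Mef2c/MAML regions at Hey2 (7.86% and 20.8%). Abutting ChIP regions were counted singly, such as chr3:8665980-8665998 and chr3:8665999-8666023 at Hey1.

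**Figure D2:**
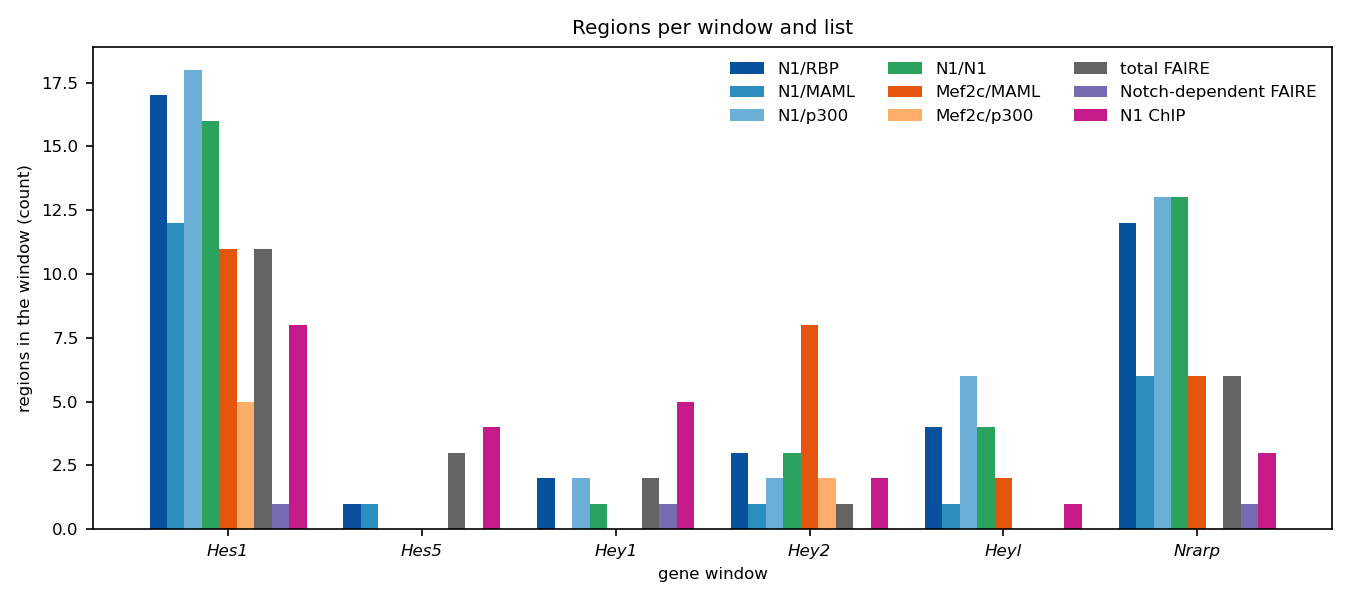
Number of deposited regions per window (vertical axis, count) for each of the 6 genes, with 1 bar per list. Hes1 leads in every SpDamID list, Nrarp follows in the N1 lists with 12, 6, 13 and 13 regions, and Hey2 is second for Mef2c/MAML with 8.

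Fragments shared by the N1 lists were concentrated at Hes1 and Nrarp. Of the 73 fragments, 11 (15.1%) were in all 4 N1 lists, against 5.94% of the fragments of the series, and 64 (87.7%) were in at least 1 N1 list, against 58.5%. The 11 comprised 6 at Hes1, 4 at Nrarp and 1 at Hey2. A further 13 were in 3 N1 lists, 6 of them at Hes1, 5 at Nrarp, 1 at Hey2 and 1 at Heyl, which made 17.8% against 7.18% in the series. Fragments of the same window lie side by side and are not independent of one another. Of the Hes5 and Hey1 fragments, none was in more than 2 N1 lists.

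At Hes1, which encodes a repressor that also represses its own gene, the fragments fell into 2 main groups and 4 smaller ones. Groups were formed from fragments less than 5000 bp apart. The larger group ran from 10.1 kb below the window centre to 4.8 kb above it (chr16:30054897-30069796, 14900 bp) and held 14 fragments, 5 of them in all 4 N1 lists, with 4 total FAIRE and 7 ChIP regions. The second group, 36.4 to 28.9 kb below the centre (chr16:30028614-30036109), held 6 fragments in 7496 bp, with 2 total FAIRE regions and no ChIP region.

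The score of each SpDamID region, a whole number on a scale that the sources used here leave unstated, is set beside its percentile, the share of regions of the same list that score as low or lower. The highest scores of 4 lists at Hes1 lay on 1 short fragment of the distant group, chr16:30029583-30029929, 347 bp long and 35.24 kb below the centre. N1/RBP scored it 612 (97.2 percentile), N1/MAML 749 (99.8), N1/p300 717 (99.6), N1/N1 620 (97.4) and Mef2c/MAML 568 (89.1). It lay on a total FAIRE region and was absent from the Mef2c/p300 and ChIP lists. The distant fragment thus scored above all fragments at the window centre in N1/MAML (749 against at most 643) and N1/p300 (717 against 652). In N1/N1 (620 against 619) and Mef2c/MAML (568 against 565) the highest scores at the centre were nearly the same.

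The other 5 Hes1 fragments in all 4 N1 lists lay within 5 kb of the window centre. The fragment chr16:30066106-30066748, 1.43 kb above the centre, was scored 645 by N1/RBP, 643 by N1/MAML, 652 by N1/p300 and 398 by N1/N1, with 495 by Mef2c/MAML. It was also a ChIP region with the same ends and a ratio of ChIP to input of 31.0. The neighbouring chr16:30065510-30065876 had 429, 561, 520 and 479 in the N1 lists and 565 in Mef2c/MAML. Both lay on total FAIRE and were absent from Mef2c/p300. On the other side of the centre, chr16:30059870-30060415 was in all 6 SpDamID lists, with 548, 507, 294 and 619 in the N1 lists, 525 in Mef2c/MAML and 561 in Mef2c/p300. The adjacent chr16:30060713-30061496 was scored 550 by N1/RBP, 115 by N1/MAML, 339 by N1/p300 and 595 by N1/N1, with 30 by Mef2c/p300 (6.68 percentile). On these 2 fragments N1/RBP and N1/N1 ranked above the 89 percentile while N1/p300 ranked below the median of its list. The fifth, chr16:30069040-30069796, was again in all 6 lists, with 599, 351, 540 and 585 in the N1 lists, 369 in Mef2c/MAML and 513 in Mef2c/p300, and it lay on no FAIRE region.

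The highest N1/RBP score of the Hes1 window was on a fragment that only 2 lists held. It was chr16:30064006-30065427, with 677 for N1/RBP (99.8 percentile) and 486 for N1/MAML, centred 0.28 kb below the window centre and on total FAIRE. A score near the top of 1 list was thus found on a fragment that 4 of the 6 SpDamID lists did not hold.

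The 6 Hes1 fragments in 3 N1 lists differed in the list they lacked. N1/N1 was missing at chr16:30022620-30023029 (380, 632 and 628 for N1/RBP, N1/MAML and N1/p300, with 503 for Mef2c/MAML) and at chr16:30066762-30067113 (302, 563 and 608, with 556 for Mef2c/MAML). The latter was a ChIP region with the same ends and a ratio of 15.6. N1/MAML was missing at the other 4. These had scores for N1/RBP, N1/p300 and N1/N1 of 445, 558 and 513 at chr16:30028614-30029582, 218, 40 and 12 at chr16:30035278-30036109, 578, 559 and 316 at chr16:30068027-30068624, and 439, 370 and 566 at chr16:30099320-30100270. Of these 4, chr16:30068027-30068624 was also in both Mef2c lists, with 565 and 552, and the other 3 were in neither. N1/MAML is the shortest of the N1 lists, with 16547 regions against 22360 to 31938, and its part in these gaps was not tested.

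**Figure D3:**
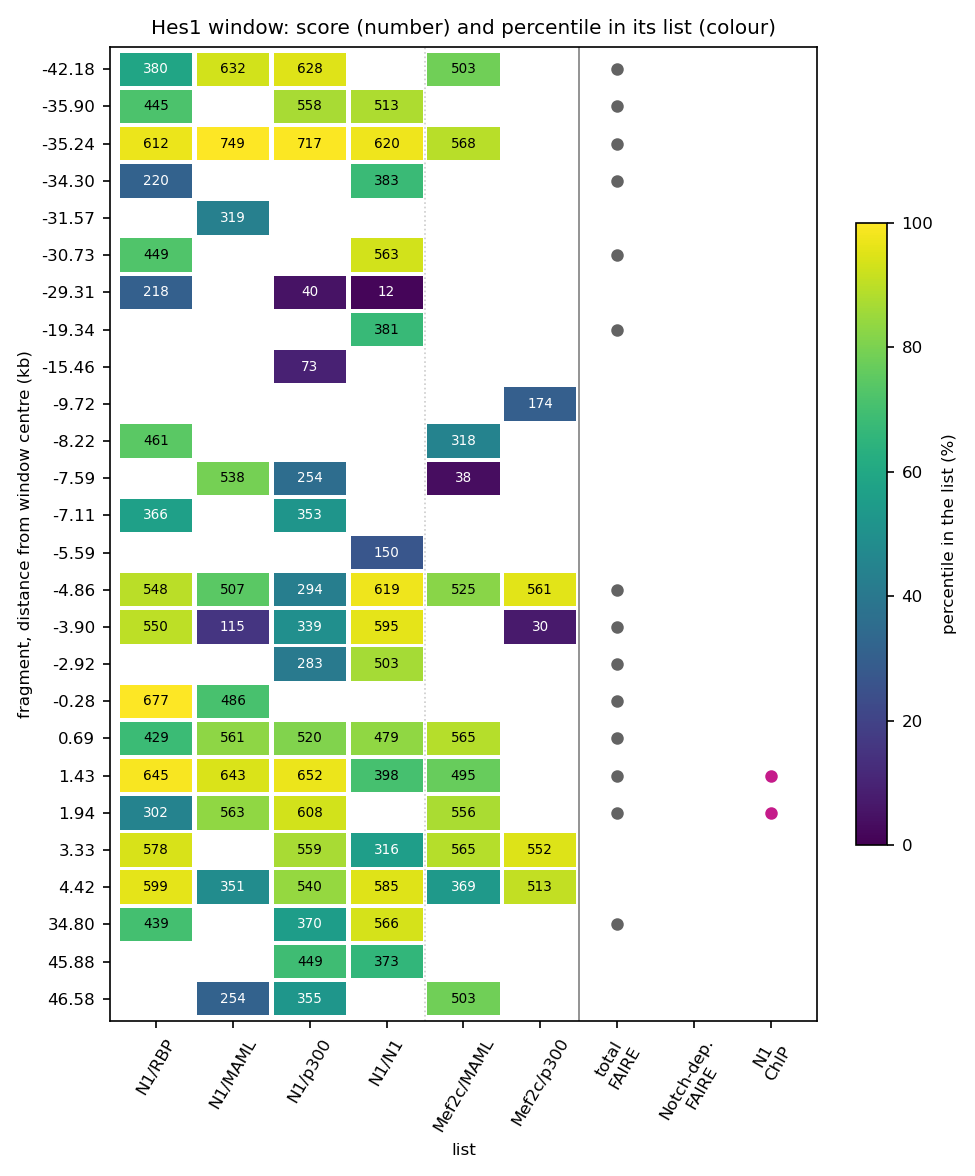
Scores of the 26 Hes1 fragments, ordered by distance from the window centre in kb (vertical axis), in the 6 SpDamID lists (horizontal axis); the number is the score, the colour its percentile in the list, a blank cell means absent from the list, and dots mark overlap with total FAIRE, Notch-dependent FAIRE and ChIP. The fragment 35.24 kb below the centre holds the highest N1/MAML, N1/p300, N1/N1 and Mef2c/MAML scores, 749, 717, 620 and 568, and ChIP dots appear at 1.43 and 1.94 kb only.

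Nrarp, the gene of the Notch feedback inhibitor, had 12 of its 22 fragments in 1 group from 12.9 kb below to 1.6 kb above the window centre (chr2:25024603-25039101, 14499 bp). The group held 8 N1/RBP, 4 N1/MAML, 11 N1/p300 and 9 N1/N1 regions, but 1 Mef2c/MAML and no Mef2c/p300 region, with 3 total FAIRE regions and 1 ChIP region. The larger Hes1 group, of about the same length, held 10, 8, 10 and 8 regions of the N1 lists with 8 Mef2c/MAML and 5 Mef2c/p300 regions.

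All 4 Nrarp fragments in all 4 N1 lists lay in this group. The fragment chr2:25025919-25026793 had the highest N1/RBP and N1/N1 scores of the window, 701 (99.9 percentile) and 635 (98.2), with 552 for N1/MAML and 630 for N1/p300, and it lay on no FAIRE region. The fragment chr2:25028005-25028449 had the highest N1/MAML and N1/p300 scores, 632 and 679, with 405 for N1/RBP and 593 for N1/N1. It lay on total FAIRE and was itself a ChIP region with a ratio of 13.8. The next fragment, chr2:25028450-25028973, had 603, 517, 668 and 580 in the N1 lists, and chr2:25032709-25033225 had 440, 347, 625 and 618. Both lay on total FAIRE, so 3 of these 4 fragments were in open chromatin, as were 60.2% of all fragments in the 4 N1 lists and 5 of the 6 at Hes1. Some of these FAIRE regions scored low. The one under chr2:25028005-25028449 and chr2:25028450-25028973 scored 76.91 (12.3 percentile of its list), and that under chr2:25032709-25033225 scored 412.12 (91.6). At Hes1 the one under chr16:30059870-30060415 and chr16:30060713-30061496 scored 77.02 (12.4), and those under the other fragments 192.85 (61.6) and 333.51 (85.8).

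Most Nrarp fragments shared by 3 or 4 N1 lists carried no Mef2c mark. Of the fragments in all 4 N1 lists, 3 of 4 at Nrarp were in no Mef2c list, against 0 of 6 at Hes1, 0 of 1 at Hey2 and 5.58% (320 of 5730) in the series. The exception at Nrarp, chr2:25028450-25028973, had a Mef2c/MAML score of 14, the 1.54 percentile of that list. Of the fragments in 3 N1 lists, 4 of 5 at Nrarp were in no Mef2c list, against 3 of 6 at Hes1, 0 of 1 at Hey2, 1 of 1 at Heyl and 27.9% in the series. Over fragments in at least 1 N1 list the series share was 55.6%. By this wider measure Nrarp did not stand alone. Fragments of an N1 list that were also in a Mef2c list were 3 of 19 at Nrarp, 2 of 11 at Heyl, 0 of 3 at Hey1 and 0 of 2 at Hes5. They were 12 of 25 at Hes1 and 3 of 4 at Hey2. The Nrarp counts for 3 or 4 N1 lists rest on 9 fragments of 1 window and on Mef2c lists from 1 library each. The difference between genes was not tested.

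The Nrarp fragments in 3 N1 lists lay in the same group and at the high end of the window. In the group, N1/RBP, N1/p300 and N1/N1 scores were 431, 592 and 632 at chr2:25024938-25025918, 356, 411 and 342 at chr2:25030985-25031420, and 293, 268 and 252 at chr2:25033790-25034574. N1/MAML was missing at all 3, as at chr2:25084154-25085170 (562, 485 and 114), 47.16 kb above the centre. At chr2:25080101-25080659, where N1/p300 was missing, N1/RBP scored 202, N1/MAML 250 and N1/N1 427, with 267 for Mef2c/MAML. That fragment lay on the total FAIRE region with the highest score of the 6 windows, chr2:25079445-25081323 (682.29). The highest Mef2c/MAML score of the Nrarp window, 556, was on chr2:25083586-25084003, which no N1 list held.

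**Figure D4:**
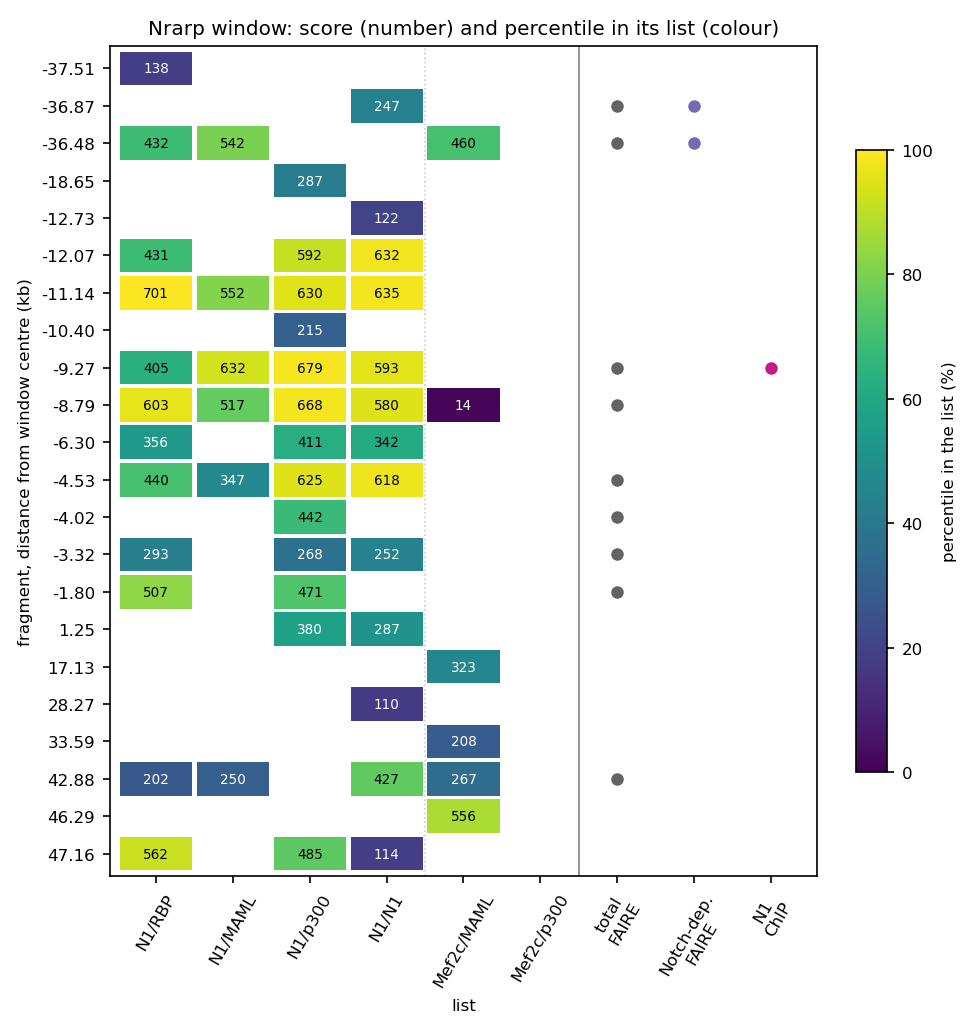
Scores of the 22 Nrarp fragments, laid out as for Hes1, with distance from the window centre in kb on the vertical axis and the lists on the horizontal axis. Between 12.73 kb below and 1.25 kb above the centre the N1/p300 column holds 11 of 12 fragments and the N1/MAML column 4, while the Mef2c/MAML column holds a single score, 14, and the Mef2c/p300 column is empty.

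Hes5, the second Hes gene, had the fewest SpDamID fragments and the fewest regions over the 9 lists together. Its 2 fragments were each in 1 list, chr4:154316930-154317270 with 316 for N1/MAML (42.3 percentile) and chr4:154374310-154375279 with 150 for N1/RBP (19.4), 20.40 kb below and 37.29 kb above the window centre. Both scores were below the median of their list. The window held 3 total FAIRE regions, with scores of 65.01 to 284.36 (6.45 to 80.4 percentile of the list). It also held 4 ChIP regions of 8 to 107 bp with ratios of 10.2 to 16.2 (2.19 to 57.8 percentile). FAIRE and ChIP counts were lower at Heyl (0 and 1) and at Hey2 (1 and 2). No Hes5 FAIRE region lay on a fragment or a ChIP region, the nearest fragment being 881 bp away.

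Hey1, which like Hey2 is expressed in the vasculature and heart, had 3 fragments and no Mef2c region. The fragment chr3:8666355-8666758, 1.56 kb above the centre, had 421 for N1/RBP (67.0 percentile) and 75 for N1/p300 (9.74), and it reached into the total FAIRE region chr3:8666725-8667262. A ChIP region with a ratio of 18.3, chr3:8666759-8666972, began at its next base and lay on the same FAIRE region. This was the only place in the Hey and Hes5 windows where a fragment met open chromatin. The fragment chr3:8691453-8692103 had 291 for N1/RBP and 21 for N1/p300 (2.45 percentile), and chr3:8668088-8669845 had 464 for N1/N1 (81.3).

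At Hey2, Mef2c/MAML was the list with the most regions, as it is in the series. The window held 8 Mef2c/MAML regions against 3 N1/RBP, 1 N1/MAML, 2 N1/p300, 3 N1/N1 and 2 Mef2c/p300 regions, and 8 of its 9 fragments were in a Mef2c list, against 67.5% in the series. Of its 9 fragments, 5 were in no N1 list, against 41.5% in the series. Of these 5, 3 formed a run at chr10:30523312-30524763 with Mef2c/MAML scores of 491, 358 and 419. The fragment chr10:30530078-30530653, 27.13 kb below the centre, was in all 6 SpDamID lists, with N1/RBP at 480, N1/MAML at 507, N1/p300 at 421, N1/N1 at 450, Mef2c/MAML at 610 (94.9 percentile) and Mef2c/p300 at 311. The fragment chr10:30507199-30507887 lacked only N1/MAML, with N1/RBP at 205, N1/p300 at 314, N1/N1 at 467, Mef2c/MAML at 219 and Mef2c/p300 at 457. The highest N1/N1 score, 487, was on chr10:30519080-30520703, which no other list held. All 9 fragments lay below the window centre and none lay on FAIRE or ChIP.

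Open chromatin at Hey2 was elsewhere. Its single total FAIRE region, chr10:30562303-30563067 (score 272.82), overlapped both ChIP regions of the window, chr10:30562061-30562937 with a ratio of 19.2 and chr10:30562938-30563074 with 10.4. The nearest SpDamID fragment was 16680 bp from that FAIRE region.

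Heyl had 11 scattered fragments, no FAIRE region and no Mef2c/p300 region. All 11 were in an N1 list, 8 of them in 1 only. The fragment chr4:122924404-122924967, 4.69 kb above the centre, was in 3 N1 lists, N1/RBP at 527 (86.4 percentile), N1/MAML at 600 (88.7) and N1/p300 at 491 (76.1), and in neither N1/N1 nor a Mef2c list. The highest N1/p300 score, 539, was on chr4:122929455-122929927, which also held 273 for Mef2c/MAML. The 4 N1/N1 scores were 122 to 270, the highest of them on chr4:122903286-122904278, and none reached the median of that list, 285. The single ChIP region, chr4:122972910-122973550 with a ratio of 18.3, lay 10633 bp from the nearest fragment.

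Across the windows, the median score at Hes1 ranked above the middle of each of the 6 lists. At Hes1 the 17 N1/RBP regions had a median percentile of 72.3, the 12 N1/MAML regions 76.7, the 18 N1/p300 regions 62.3 and the 16 N1/N1 regions 84.9, with 78.4 over 11 Mef2c/MAML and 90.7 over 5 Mef2c/p300 regions. At Nrarp it was 68.8, 77.8, 72.4 and 61.1 in the N1 lists and 40.4 for 6 Mef2c/MAML regions. The Hes1 fragments thus ranked high in both kinds of list, while at Nrarp the Mef2c/MAML ranks were the lowest. At Heyl the median was 34.8 for 4 N1/RBP, 52.0 for 6 N1/p300 and 33.4 for 4 N1/N1 regions, with 26.2 for 2 Mef2c/MAML regions and 88.7 for the single N1/MAML region. Within each list the spread was wide, and at Hes1 N1/N1 scores ran from 12 to 620.

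**Figure D5:**
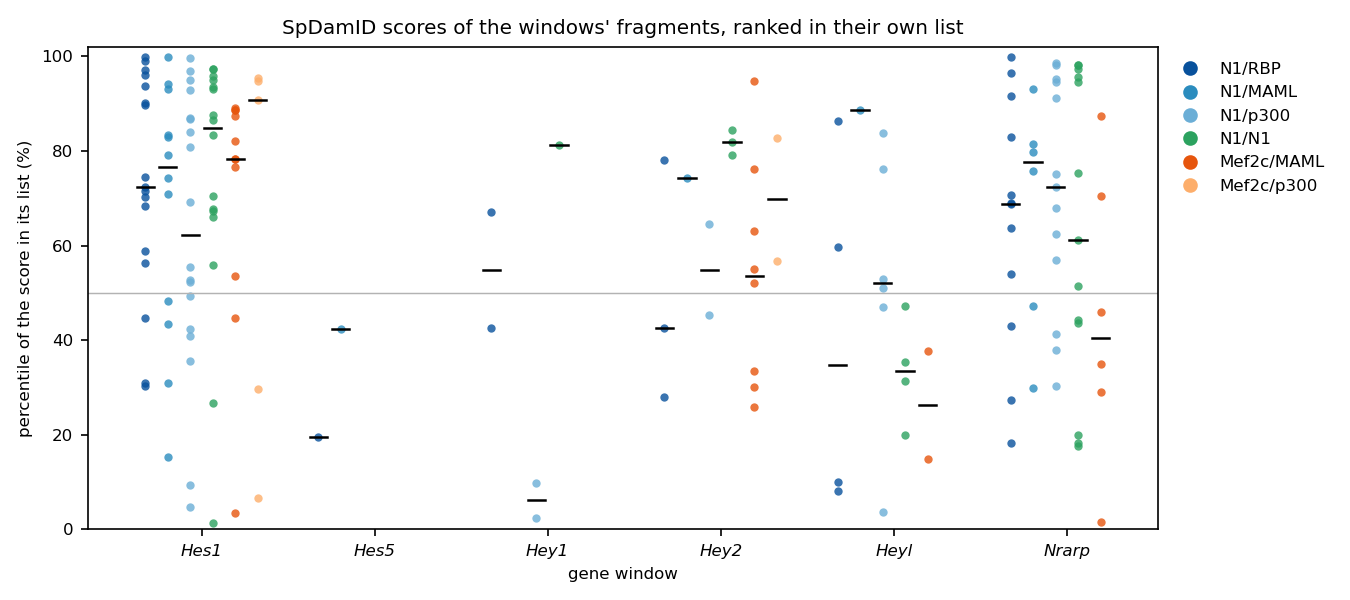
Percentile of each SpDamID score within its own list (vertical axis, %) by gene window (horizontal axis) and list (colour); each point is 1 region, black bars are medians and the grey line is the middle of a list. The 16 N1/N1 regions at Hes1 have a median of 84.9 and the 4 at Heyl one of 33.4, and every list with 4 or more regions at Hes1 or Nrarp spans a wide range.

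Open chromatin covered part of the SpDamID marks. Of the 73 fragments, 24 (32.9%) touched a total FAIRE region, against 19.3% of all fragments by the same rule. The share in the windows was 21.9% when the fragment's centre had to lie inside, and the series share by that stricter rule was not computed. The 24 were 14 of 26 at Hes1, 9 of 22 at Nrarp and 1 of 3 at Hey1. Read the other way, 15 of the 23 total FAIRE regions overlapped a fragment, against 62.1% in the series: 9 of 11 at Hes1, 5 of 6 at Nrarp and 1 of 2 at Hey1. The fragments in open chromatin were thus those of Hes1 and Nrarp with a single exception, while the share of FAIRE regions that overlapped a fragment was near that of the series.

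Notch-dependent FAIRE regions, a class whose selection the sources used here do not state, occurred 1 each at Hes1, Hey1 and Nrarp, each 36 kb or more from the window centre. At Hes1 it was chr16:30024525-30025489, with a score of 349.44 in the Notch-dependent list and 525.08 in the total list, the highest total FAIRE score of the window. It overlapped no SpDamID fragment and no ChIP region, and the nearest fragment was 1495 bp away. At Hey1 it was chr3:8717124-8717925 (366.55 in both lists), which held a ChIP region, chr3:8717596-8717822, with a ratio of 26.5, while the nearest fragment was 25020 bp away. At Nrarp it was chr2:25000640-25001479 (246.28, and 370.26 in the total list), and it alone overlapped fragments. These were chr2:25000454-25000810, with 247 for N1/N1, and chr2:25000811-25001237, with N1/RBP at 432, N1/MAML at 542 and Mef2c/MAML at 460. Of the 73 fragments, 2 (2.74%) thus lay in Notch-dependent FAIRE, against 2.80% of all fragments. None of the 11 fragments in all 4 N1 lists was among them.

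N1 ChIP regions occurred at all 6 genes, and a few of them were SpDamID fragments. The windows held 23, with abutting regions counted singly and ratios of 10.2 to 71.3. Of these, 3 lay on a fragment, 2 at Hes1 and 1 at Nrarp, with identical ends, against 6.10% of all ChIP regions. From the side of the fragments this was 4.11%, against 1.41% in the series. All 1361 ChIP regions of the series that touched a fragment had both its ends, so these lists lie on a common map. No ChIP region thus overlapped a fragment in part. The 3 in the windows were each at least 300 bp long, as were 7 of the 23, so short ChIP regions had little room to coincide. Of the 23, 13 lay on total FAIRE, against 25.5% of all ChIP regions, 7 of them at Hes1 and 2 each at Hey1, Hey2 and Nrarp. The remaining 10 lay on neither.

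Beside the 2 ChIP regions at Hes1 that were fragments, the other 5 on total FAIRE lay between fragments. The highest ratios of all windows, 71.3 at chr16:30063339-30063431 and 42.8 at chr16:30063432-30063449, were on total FAIRE between fragments, 556 bp or more from the nearest. Regions of 10 bp (chr16:30065428-30065437, ratio 30.0) and 13 bp (chr16:30066749-30066761, ratio 13.8) began at the base after a fragment, and the latter joined the 2 fragments that were ChIP regions themselves. A further one, chr16:30060447-30060647 with a ratio of 11.0, lay 31 bp from a fragment in all 6 SpDamID lists. At Nrarp, chr2:25079718-25080100 (19.6) ended at the base before the fragment chr2:25080101-25080659 on the same FAIRE region. ChIP ratios at short regions rest on little DNA: 16 of the 23 were under 300 bp, against 73.7% in the series, and 20 of the 23 had an input signal at a fixed value of 0.1, against 90.1%. The 3 with another input value were the 2 Hes1 fragments and chr10:30562061-30562937 at Hey2.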

How the data were processed

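The members, windows and comparisons were chosen with earlier results of these data known. Coordinates are mm9, per the submitters' processing notes. For each complex the authors deposited a list of fragments with a whole-number score over Dam at a confidence level of 0.999 or more, per the file headers. The headers name the lists by initials only, which were read as the labels' complexes, with the word median in those for N1/RBP, N1/MAML, and N1/p300. FAIRE peaks and their MACS score were made in Galaxy, per the file headers. The deposited ChIP table gives a ChIP signal, an input signal and their ratio without a header. The column roles were read from the quotient, which matched within a relative error of 4.79e-10. Not given in the sources used here are aligners, caller versions, read depths and the rule for Notch-dependent peaks. Scores and ratios were used only within their list.

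Starts of FAIRE regions were raised by 1, and an overlap of 1 bp or more counted. Background shares used 23967 adjacent windows of 110 kb on the 19 autosomes and X. Regions named are all Notch-dependent FAIRE regions, ChIP regions on FAIRE or a fragment, fragments in 3 or 4 N1 lists, the highest score of each list per window, and a few chosen after their values were seen. Promoters and neighbours came from RefSeq GRCm38.p6 and were not joined to mm9 positions. Python 3.11.15, numpy 2.4.6, scipy 1.17.1 and matplotlib 3.10.9 were used, and the overlap counts were tested on simulated data. Columns of per-sample values left out numbered 0. Other Notch target genes were not analysed here.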

Additional observations from a re-analysis of the deposited data

How the results depend on the processing

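The count of 73 fragments became 46 in the central 50% of each window, 48 from regions at or above their list's median score and 46 with fragments within 500 bp merged. Under the first 2 of these settings the 23 total FAIRE regions became 15 and 15, and in the central 50% the 3 Notch-dependent FAIRE regions became 0. At or above the median score the 11 fragments in all 4 N1 lists became 7 and the 23 ChIP regions became 14. Of the ChIP regions, 7 were at least 300 bp long and 3 had an input off the fixed value. The share of fragments in total FAIRE, 32.9%, became 21.9% both with 50% of the smaller region and with the fragment centre inside. The share over all fragments of the series was not computed under these settings.

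Of the single-gene counts, 4 of 18 moved in the central 50%, 5 of 18 from the median score, 2 of 6 with merging and 0 of 18 with regions wholly inside the window. Only larger shifts were counted as moved, so the other counts were not all unchanged. Heyl went from 11 to 8 fragments in the central 50%. Hes1 went from 26 to 21 from the median score, and Hey2 from 9 to 6 with merging, without being counted. Among genome windows with a region of any list, the background shares became 58.3% (N1/RBP), 51.1% (N1/MAML), 54.9% (N1/p300), 63.7% (N1/N1), 78.0% (Mef2c/MAML), 65.1% (Mef2c/p300), 52.3% (total FAIRE), 11.8% (Notch-dependent FAIRE) and 43.0% (ChIP). Among those with a total FAIRE region, an alternative added after seeing the data, they became 81.6%, 66.8%, 74.5%, 84.4%, 92.1%, 79.8%, 22.2% (Notch-dependent FAIRE) and 57.6% (ChIP). Windows centred on gene starts were not run, since no mm9 annotation was used here. No paired analysis was possible because the lists hold no value per library and no result comes from a test, and no library could be left out for the same reason. Depth per library is unknown.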
